A study of Homo sapiens with 32 samples.

Results

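Alpha- and beta-tubulin genes and the features annotated on the opposite strand of their exons were followed through 32 RNA-seq libraries of LNCaP, an established prostate cancer line that grew out of a lymph node metastasis and needs androgen. The 8 members, of 57773 genes in the table, were taken by name. They are 5 genes for tubulin proteins (TUBA1A, TUBA1B, TUBA1C, TUBB and TUBB4B) and 3 long noncoding features. RP11-386G11.10 lies opposite TUBA1B and, at its far end, TUBA1A. RP11-161H23.5 lies opposite TUBA1C, and XXbac-BPG252P9.9 lies opposite TUBB. The 4 lines were the parental line and lines stably carrying a neutral, a repressive or an activating MACC, a fusion of the androgen receptor's DNA-binding domain to ERT2, a mutant estrogen receptor ligand-binding domain that tamoxifen sends into the nucleus. The neutral MACC carries 3X FLAG only. The repressive MACC adds KRAB, through which co-repressors are brought to DNA, and the activating MACC adds VP64, a viral transcriptional activator. Each line received 2.5 µM tamoxifen or ethanol vehicle for 48 h, with 4 libraries in each of the 8 groups. The MACC lines are selected populations of lentivirally transduced cells, and p-values measure the spread between the libraries of each group. Because a bulk library mixes all cells, fewer cells of a kind and less RNA per cell cannot be told apart.

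Alpha- and beta-tubulin form the heterodimers that polymerise into microtubules, the tracks for intracellular transport and the fibres of the mitotic spindle. Taxanes, which are used against prostate cancer, bind beta-tubulin and stabilise microtubules. TUBA1B and TUBA1C are broadly expressed alpha-tubulin genes, TUBA1A is best known in developing neurons, and TUBB and TUBB4B are the common beta-tubulin genes of many cell types. Cells also hold tubulin at a set level by degrading tubulin mRNAs when free dimers are in excess, a step that uses the ribosome-bound adaptor TTC5 and the CCR4-NOT deadenylase.

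The opposite-strand features cover coding sequence, as the maps of exons show. On GRCh37, TUBA1B occupies chr12:49521565-49525180 on the minus strand, and 1571 exonic bases of it lie under exons of RP11-386G11.10 (chr12:49521565-49582267, plus strand), 922 of them coding. TUBA1C occupies chr12:49582519-49668383 on the plus strand, and RP11-161H23.5 (chr12:49658939-49667089, minus strand) overlaps 666 of its exonic bases, 558 of them coding. These 666 bases are 97.9% of the exons of RP11-161H23.5, whereas the 1571 bases opposite TUBA1B are 34.0% of those of RP11-386G11.10. TUBB occupies chr6:30685212-30693315 on the plus strand, and XXbac-BPG252P9.9 (chr6:30690882-30691654, minus strand) is a single exon that covers 538 bases of its last exon, all coding. These 538 bases are 69.6% of XXbac-BPG252P9.9. TUBA1A (chr12:49578469-49582863, minus strand) meets RP11-386G11.10 over only 68 bases. TUBB4B (chr9:140135739-140138159, plus strand) has no such feature among the members, and 124 of its exonic bases lie opposite FAM166A.

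**Figure D1:**
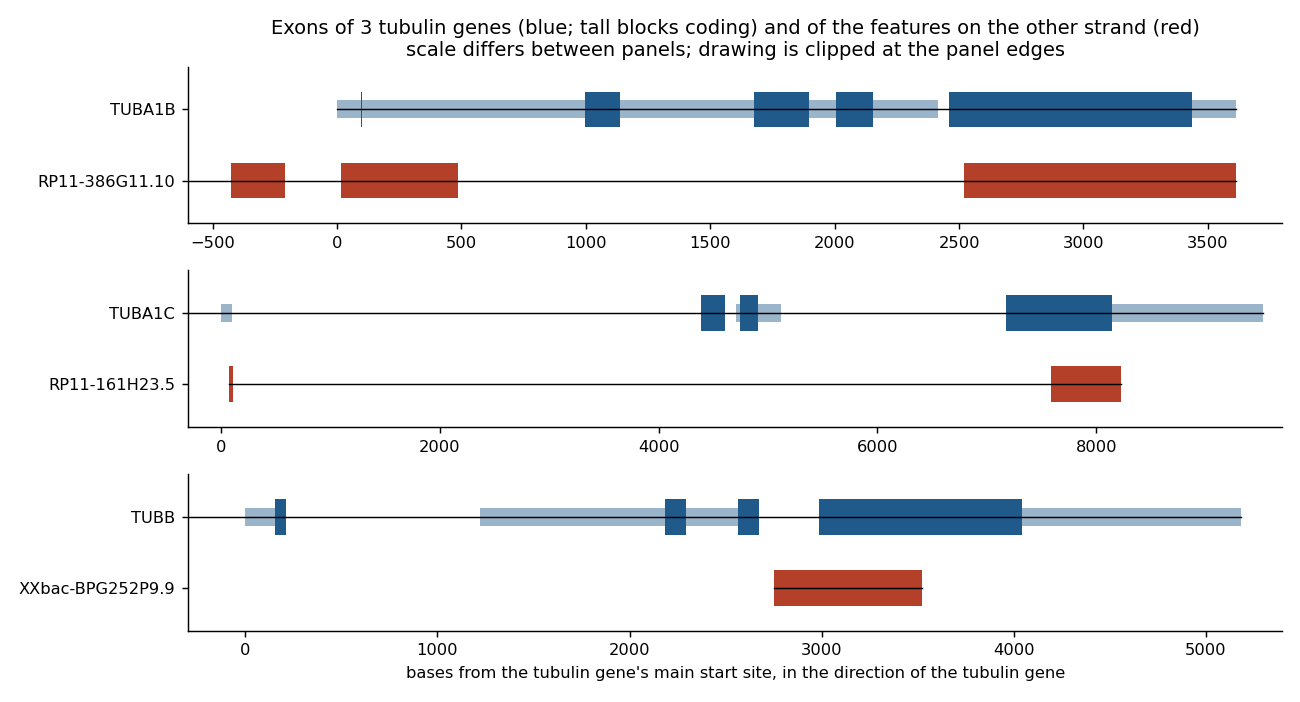
Exons of TUBA1B, TUBA1C and TUBB (blue, coding parts tall) above the exons of the feature on the other strand (red), as distance in bases from the tubulin gene's main start site. Each feature covers coding sequence of its tubulin gene: 922 coding bases of TUBA1B, 558 of TUBA1C and 538 of TUBB.

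The 3 alpha-tubulin genes are close copies, which bears on how reads can be assigned to them and to the features opposite them. Over their coding sequences, TUBA1B was 97.2% identical to TUBA1A and 97.3% identical to TUBA1C, whereas TUBB and TUBB4B were 84.6% identical. Where the coding parts of TUBA1B and TUBA1C both lie under a feature, 532 of 558 bases were the same. The beta-tubulin genes are further apart, with 450 of 538 bases the same over the coding part of TUBB under XXbac-BPG252P9.9. Printed below is the window of 90 bases there that was picked for having the most differences (coding bases 412 to 501). It lies at chr6:30691251-30691340 in TUBB and chr9:140137082-140137171 in TUBB4B, both on the plus strand, with the bases that differ from TUBB in capitals.
TUBB: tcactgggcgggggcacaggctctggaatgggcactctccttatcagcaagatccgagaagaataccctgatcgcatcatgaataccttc
TUBB4B: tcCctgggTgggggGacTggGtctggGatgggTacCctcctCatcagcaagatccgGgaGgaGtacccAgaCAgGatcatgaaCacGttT
Here 19 of the 90 bases differed. Of all stretches of 50 bases in the transcripts of RP11-161H23.5, 20.6% also occurred in RP11-386G11.10, and those were 2.8% of the stretches of RP11-386G11.10. XXbac-BPG252P9.9 shared no such stretch with either.

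The estimated counts carried the mark of that sharing. RP11-386G11.10 and RP11-161H23.5 each had a fractional count in all 32 libraries, but their sum was whole, within 0.01, in 32 of 32. The sum of TUBA1A, TUBA1B and TUBA1C was likewise whole in 32 of 32 libraries. XXbac-BPG252P9.9 was whole by itself in 32 libraries and TUBB in 31. Salmon divides reads that match several transcripts, and how many reads were divided in this way was not measured.

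Library totals ran from 455008 to 1164832 counts with a median of 669952, and the highest was neutral tamoxifen replicate 1, in which the 3 features held 7.37% of counts against 9.24% to 9.75% in the other tamoxifen libraries of that line. The defining luminal prostate genes were counted in every library (9 of 9), although KLK3 had 3 to 59 counts. Of 4 basal markers TP63 was at 0 throughout, KRT14 reached 3 counts, KRT15 reached 1 and KRT5 reached 54. Of 4 fibroblast markers COL1A2, DCN and PDGFRB were at 0 throughout and COL1A1 reached 2.

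Nearly all counts at these loci were on the opposite-strand features. RP11-386G11.10 had 23253 to 62884 counts per library, ranking 2 among all rows by mean count. XXbac-BPG252P9.9 had 5253 to 18238 counts (rank 6) and RP11-161H23.5 had 4255 to 8715 (rank 10). Together the 3 features held 5.82% to 12.2% of a library. The tubulin genes were at the other end of the scale. TUBB had 7 to 26 counts per library, TUBB4B 5 to 26, TUBA1B 2 to 26, TUBA1A 0 to 11 and TUBA1C 0 to 10. TUBA1A was at 0 in 7 libraries and TUBA1C in 3. For every count on TUBA1B or TUBA1A there were 3238 on RP11-386G11.10, for every count on TUBA1C there were 1976 on RP11-161H23.5, and for every count on TUBB there were 813 on XXbac-BPG252P9.9. The library kit keeps strand, but the strand setting of the counting is not given in the sources used here. Which strand the RNA came from was not tested, so values below are given for the rows as deposited.

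Per kilobase of exon the features also stood far above the tubulin genes. The mean over 32 libraries of the normalised count (CPM after TMM scaling) per kilobase was 14897 ± 1926 (SD) for RP11-386G11.10, 14384 ± 3344 for RP11-161H23.5 and 25560 ± 4352 for XXbac-BPG252P9.9. On the same per-length scale it was 8.68 ± 2.92 for TUBB4B, 6.03 ± 1.53 for TUBB, 4.79 ± 1.84 for TUBA1B, 1.08 ± 0.756 for TUBA1C and 0.903 ± 0.752 for TUBA1A. These SDs over 32 libraries also hold the differences between groups. By group the first 2 features could stand apart, and in either order. In neutral vehicle libraries RP11-386G11.10 was at 14668 ± 893 per kilobase and RP11-161H23.5 at 11905 ± 700 (SD, n = 4). In activating tamoxifen libraries they were at 11569 ± 1007 and 22090 ± 1700 (SD, n = 4). Differences between members on this scale were not tested.

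Tamoxifen in the activating line moved the 3 features in different directions, and the plot of normalised counts shows each library. RP11-161H23.5, opposite TUBA1C, stood at 7538, 8356, 8204 and 8196 normalised CPM (counts scaled to the effective library size) in vehicle replicates 1 to 4 and at 14509, 13749, 15396 and 16431 under tamoxifen. Every tamoxifen library was above every vehicle library. The log2 fold change was 0.88 (SE 0.066, adjusted p = 1.10e-10 by the quasi-likelihood test of edgeR). XXbac-BPG252P9.9, opposite TUBB, went the other way, from 17690, 20084, 19063 and 19433 in vehicle to 11920, 11607, 12544 and 13814 under tamoxifen. These groups did not overlap either, and the feature fell by 0.63 on the log2 scale (SE 0.066, adjusted p = 3.46e-08 from edgeR). RP11-386G11.10, opposite TUBA1B, had 59632, 66222, 65795 and 68504 in vehicle and 50799, 48568, 55529 and 58906 under tamoxifen. Its groups also stood apart, by the smallest margin of the 3, and it fell by 0.30 on the log2 scale (SE 0.066, adjusted p = 6.04e-04 from edgeR).

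**Figure D2:**
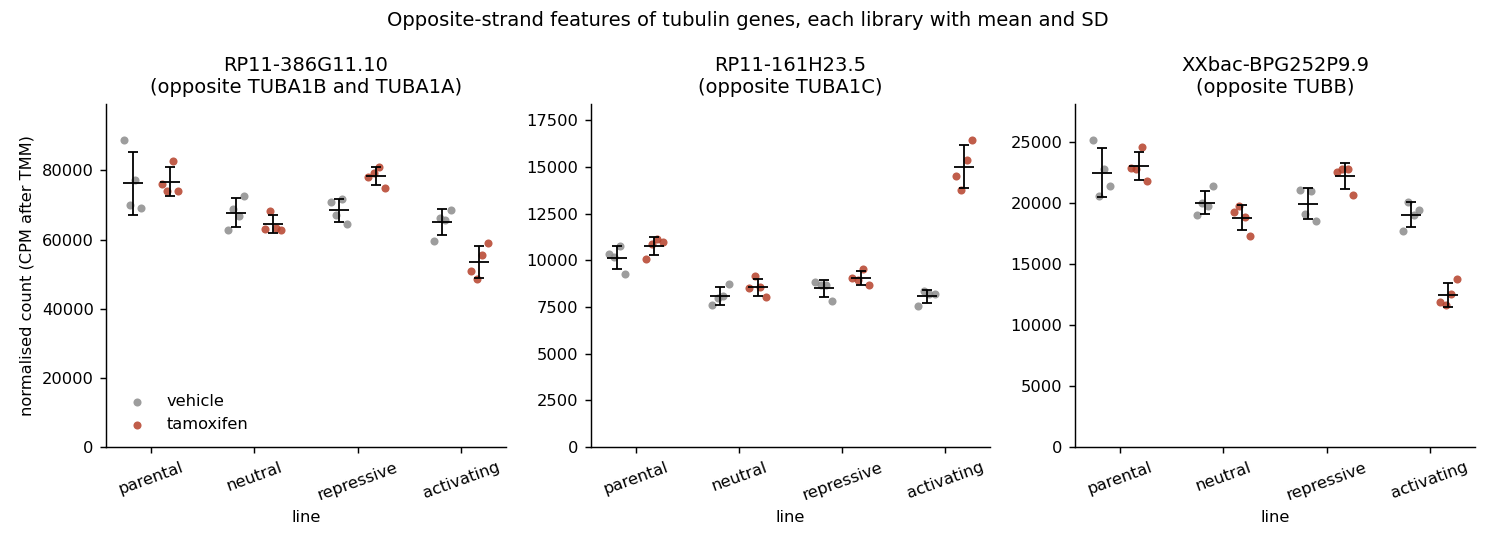
Normalised count (CPM after TMM) of the 3 opposite-strand features in each of 32 libraries, by line and treatment, with group mean and SD in black. In the activating line RP11-161H23.5 rose from a mean of 8074 to 15021 CPM, while RP11-386G11.10 went from 65038 to 53450 and XXbac-BPG252P9.9 from 19067 to 12471.

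KRT5 and KRT8 had their highest counts in the activating tamoxifen libraries. The 4 basal markers summed to 38 to 54 counts in activating tamoxifen libraries, the range of KRT5 itself, and to 0 to 3 in every other group, where KRT5 was at 0. TP63 was at 0 in all. The 9 luminal markers summed to 4215 to 5996 counts there, most of them from KRT8 (4080 to 5848), against 681 to 1451 in activating vehicle libraries. Their part in the changes of the features was not tested.

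Of the 6 members that passed the expression filter, 3 were called in the activating line, where 44.8% of all 3985 tested genes were called (22% higher and 22.8% lower). The sizes depended on the scaling. With library totals in place of TMM the values were 0.43 for RP11-161H23.5, -0.75 for RP11-386G11.10 and -1.08 for XXbac-BPG252P9.9, all still called, on a scale where the median of all genes stood at -0.54 (-0.09 with TMM) and the calls split into 442 higher and 1684 lower (876 and 910 with TMM). With TMM factors taken from genes that have no opposite-strand exons, an alternative added after seeing the data, RP11-386G11.10 was at -0.17 and no longer called (adjusted p = 0.0793 from edgeR), while RP11-161H23.5 was at 1.01 and XXbac-BPG252P9.9 at -0.50, both called.

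**Figure D3:**
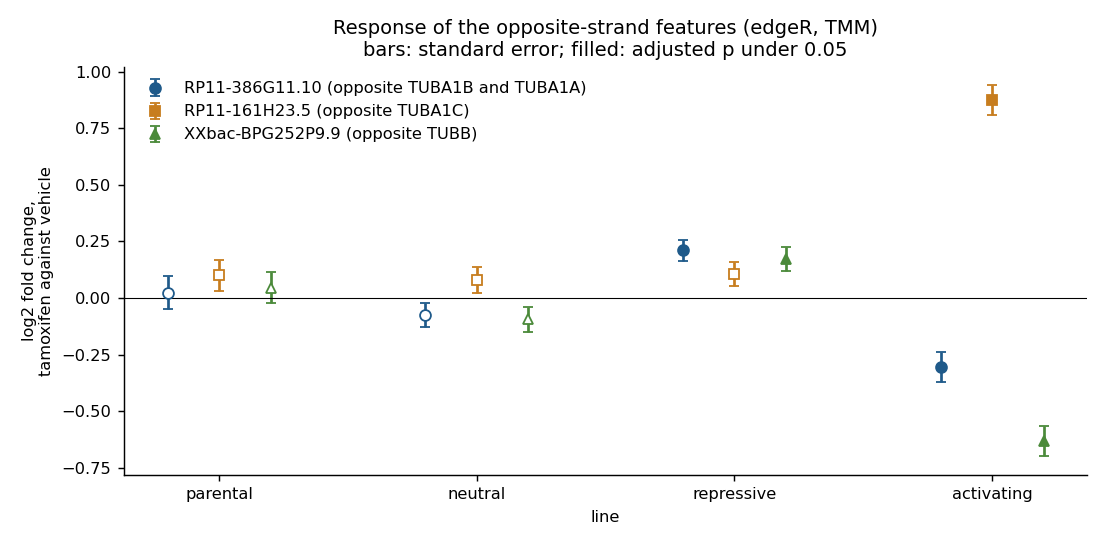
Log2 fold change of the 3 opposite-strand features, tamoxifen against vehicle, in each line from edgeR, with standard errors; filled symbols had an adjusted p under 0.05. Values lie between -0.09 and 0.10 in the parental and neutral lines, between 0.10 and 0.21 in the repressive line, and at -0.30, 0.88 and -0.63 in the activating line.

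The share of a library taken by the 3 features together was 9.75% ± 0.614 (SD, n = 4) in activating vehicle and 6.24% ± 0.439 (n = 4) in activating tamoxifen libraries, with no overlap (8.92% to 10.3% against 5.82% to 6.77%). Neutral libraries had 10.2% ± 0.576 with vehicle and 8.94% ± 1.07 with tamoxifen. Repressive libraries had 10.3% ± 0.555 and 10.9% ± 0.385, and parental libraries 11.4% ± 0.506 and 11.8% ± 0.290. Summed over RP11-386G11.10 and RP11-161H23.5, the normalised CPM was 73112 ± 4128 in activating vehicle and 68471 ± 5804 in activating tamoxifen libraries. These groups overlapped, the log2 difference was -0.10, and it was not past the threshold (exact two-sided permutation p = 0.229, adjusted p = 0.457 over the 4 lines). How the division of shared reads bears on the opposite changes of the 2 alpha-tubulin features was not tested.

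Tubulin protein genes in the activating line gave no call. TUBA1B had 16, 10, 11 and 10 counts in vehicle libraries and 10, 2, 4 and 3 under tamoxifen. The groups met only at 10 counts, reached by tamoxifen replicate 1, and the log2 fold change was -0.70 (SE 0.42, adjusted p = 0.188 from edgeR). Without that library it was -1.34 and called (adjusted p = 0.0242 from edgeR), and with library totals it was -1.14 and called (adjusted p = 0.0322 from edgeR). TUBB had 14, 12, 14 and 15 counts in vehicle and 7, 10, 12 and 12 under tamoxifen, a log2 fold change of 0.16 (SE 0.31, adjusted p = 0.711 from edgeR) once depth was taken into account. TUBB4B had 17, 13, 11 and 6 counts in vehicle and 8, 11, 5 and 9 under tamoxifen, a log2 fold change of 0.09 (SE 0.33, adjusted p = 0.858 from edgeR). TUBA1A had at most 1 count in any activating tamoxifen library, and TUBA1C 1 to 4, so neither passed the filter and no fold is given. Across the tamoxifen comparisons the standard errors of the tubulin genes ran from 0.23 to 0.42, against 0.047 to 0.074 for the features, so changes as small as those of RP11-386G11.10 were not detectable for the tubulin genes at this depth.

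**Figure D4:**
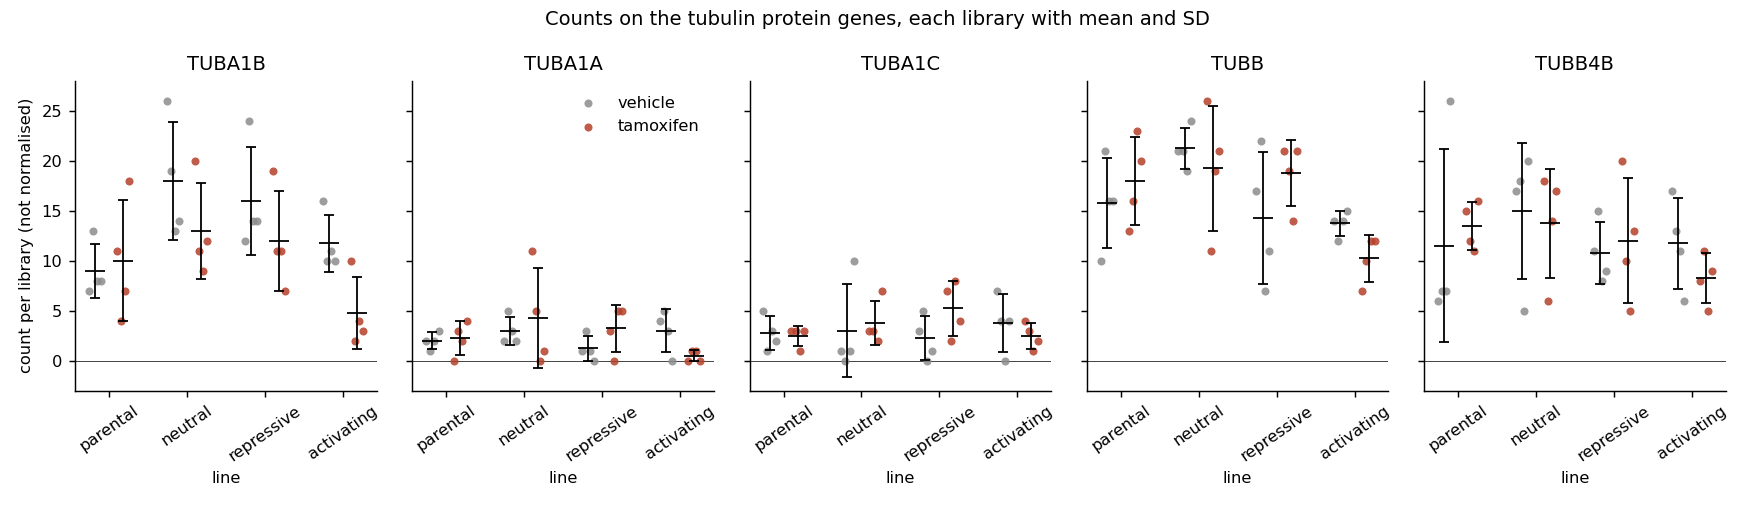
Counts per library (not normalised) of the 5 tubulin protein genes by line and treatment, with group mean and SD in black. All 160 values lie between 0 and 26 counts, and vehicle and tamoxifen libraries overlap, or meet at one value (TUBA1B and TUBB in the activating line), for each gene in each line.

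The repressive line showed a smaller movement, and in the other direction for 2 features. RP11-386G11.10 stood at 70756, 67094, 71616 and 64512 normalised CPM in vehicle and 78167, 79355, 81070 and 74920 under tamoxifen. No values overlapped, and it rose by 0.21 on the log2 scale (SE 0.047, adjusted p = 0.00175 from edgeR). XXbac-BPG252P9.9 had 21061, 19147, 20993 and 18562 in vehicle and 22584, 22822, 22789 and 20631 under tamoxifen. Tamoxifen replicate 4 lay within the vehicle range, and the rise was 0.17 (SE 0.052, adjusted p = 0.0201 from edgeR). RP11-161H23.5 was at 7831 to 8825 in vehicle and 8681 to 9536 under tamoxifen, and its log2 fold change of 0.10 (SE 0.053, adjusted p = 0.183 from edgeR) did not pass. Thus 2 of 6 tested members were called, against 17.8% of all tested genes. Both calls were lost with library totals (0.08 for RP11-386G11.10 and 0.05 for XXbac-BPG252P9.9). That of XXbac-BPG252P9.9 was also lost by DESeq2's test (adjusted p = 0.0543) and when any of vehicle replicates 2 and 4 and tamoxifen replicates 1 and 2 was left out (adjusted p from 0.0509 to 0.0942 with edgeR). TUBA1B was at -0.40 (adjusted p = 0.417 from edgeR), TUBB at 0.43 (adjusted p = 0.325 from edgeR) and TUBB4B at 0.17 (adjusted p = 0.785 from edgeR).

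No member was called in the lines without an effector domain. In the neutral line, where 4.72% of all tested genes were called, the log2 fold changes of the features were -0.08 for RP11-386G11.10, 0.08 for RP11-161H23.5 and -0.09 for XXbac-BPG252P9.9, with adjusted p-values of 0.513, 0.523 and 0.410 from edgeR. In parental cells, where 0% of genes were called (0 by edgeR, with 306 genes at an unadjusted p under 0.05), they were 0.02, 0.10 and 0.05, with adjusted p-values of 0.971, 0.735 and 0.909 from edgeR. DESeq2's test called none of the members in either line. With the replicate number as a block, 32 genes were called in parental cells, none of them a member.

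The responses of the lines were then compared with each other by the interaction of line and treatment over 16 libraries. Activating and neutral responses differed for 3 of 6 members, beside 33.4% of all tested genes: by 0.77 for RP11-161H23.5 (SE 0.076, adjusted p = 2.67e-09 from edgeR), -0.57 for XXbac-BPG252P9.9 (SE 0.077, adjusted p = 7.23e-07 from edgeR) and -0.26 for RP11-386G11.10 (SE 0.073, adjusted p = 0.00694 from edgeR). The last was lost with DESeq2's test (adjusted p = 0.104), with DESeq2's size factors (adjusted p = 0.0834 with edgeR), in a single fit of all 32 libraries (adjusted p = 0.0638 with edgeR) and with TMM from genes that have no opposite-strand exons, where it was -0.12 (adjusted p = 0.392 with edgeR). It was also lost without neutral vehicle replicate 1 or 2 or activating vehicle replicate 2 (adjusted p from 0.0521 to 0.0811 with edgeR). Activating and repressive responses differed for the same 3 members, beside 35.9% of all tested genes, by 0.77 for RP11-161H23.5, -0.81 for XXbac-BPG252P9.9 and -0.52 for RP11-386G11.10. Repressive and neutral responses differed for 2 members, beside 3.39% of all tested genes, by 0.28 for RP11-386G11.10 (adjusted p = 0.0173 from edgeR) and 0.26 for XXbac-BPG252P9.9 (adjusted p = 0.0475 from edgeR). Both were lost with library totals. The first call was lost without any of 5 of the 16 libraries and the second without any of 10 (adjusted p from 0.0535 to 0.0769 and from 0.0608 to 0.167 with edgeR). RP11-161H23.5 differed by 0.02 (SE 0.077) between the repressive and neutral responses. These comparisons share the libraries of each line.

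A ratio of 2 features within a library is free of scaling, and the plot of ratios shows the activating tamoxifen libraries apart from all others. The log2 ratio of counts of RP11-161H23.5 to RP11-386G11.10 lay between -3.06 and -2.98 in the 4 activating vehicle libraries and was -1.81, -1.82, -1.85 and -1.84 under tamoxifen. The difference of 1.18 was many times the SD of either group (0.037 and 0.020). In plain counts, RP11-386G11.10 had 7.91 to 8.36 times the count of RP11-161H23.5 with vehicle and 3.50 to 3.61 times with tamoxifen. RP11-161H23.5 to XXbac-BPG252P9.9, a pair with no shared sequence of 50 bases, went from -1.23, -1.26, -1.22 and -1.25 to 0.28, 0.24, 0.30 and 0.25, a difference of 1.51. With tamoxifen, RP11-161H23.5 thus had more counts than XXbac-BPG252P9.9 in 4 of 4 libraries, and with vehicle fewer in 4 of 4. RP11-386G11.10 to XXbac-BPG252P9.9 rose from 1.77 ± 0.042 to 2.10 ± 0.034 (SD, n = 4), a difference of 0.33.

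**Figure D5:**
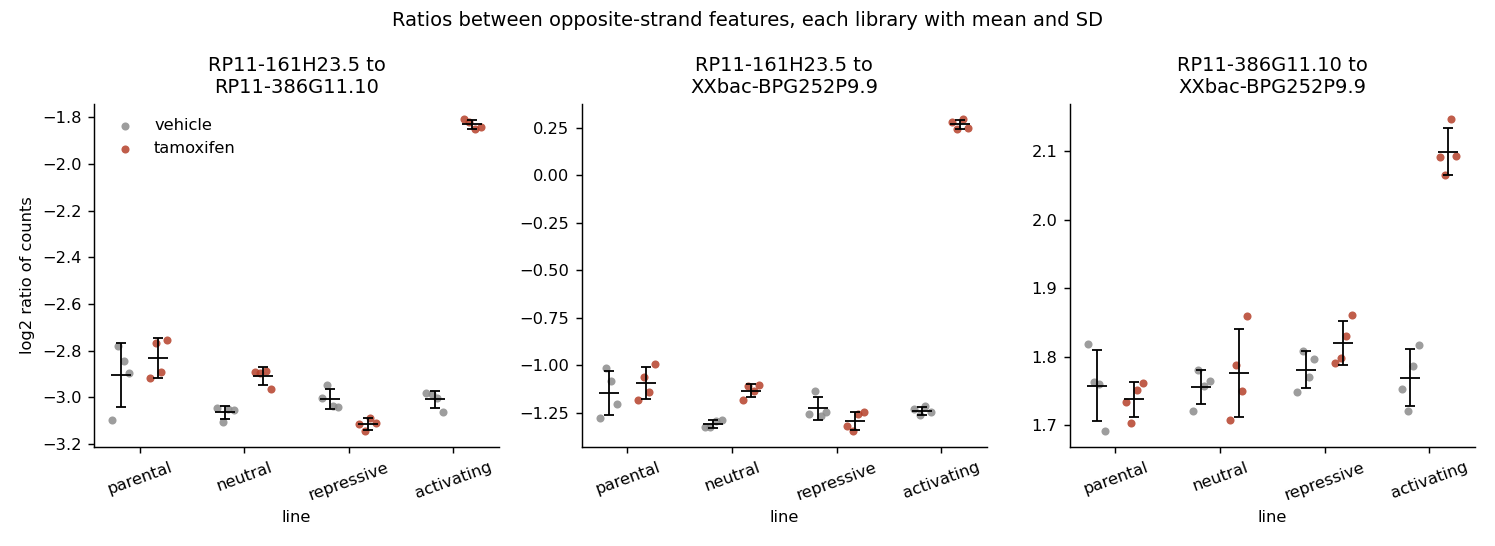
Log2 ratio of counts between each pair of opposite-strand features in each library, by line and treatment, with group mean and SD in black. The 4 activating tamoxifen libraries lie at -1.85 to -1.81, 0.24 to 0.30 and 2.06 to 2.15, above every other library in each panel.

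Of the 3 ratios, 3 did not overlap between treatments in the activating line, 2 in the neutral line, 1 in the repressive line and 0 in parental cells. Among all pairs of the 100 rows with the highest mean count, 77.5%, 33.4%, 49% and 12.2% did not overlap in those lines. The neutral differences were small: 0.15 for RP11-161H23.5 to RP11-386G11.10 (-3.07 ± 0.028 to -2.91 ± 0.038, SD, n = 4) and 0.18 for RP11-161H23.5 to XXbac-BPG252P9.9 (-1.31 ± 0.020 to -1.13 ± 0.035). In the repressive line RP11-161H23.5 to RP11-386G11.10 went the other way, from -3.01 ± 0.044 to -3.11 ± 0.025. For each of these 6 differences the exact permutation test (two-sided) gave p = 0.0286, which is the lowest value reachable with groups of 4, and adjusted p = 0.0571 over 12 tests, which misses the threshold. The ratio of a tubulin gene to the feature opposite it overlapped between treatments in all 16 combinations of gene and line. The closest was TUBB to XXbac-BPG252P9.9 in the activating line, at -9.95 ± 0.334 with vehicle and -9.17 ± 0.380 with tamoxifen (exact two-sided permutation p = 0.0571, adjusted p = 0.762 over 16 tests).

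With vehicle alone, the MACC lines differed from parental cells in RP11-161H23.5. It stood at 10352, 10193, 10754 and 9288 normalised CPM in parental libraries, at 7592 to 8738 in the neutral, 7831 to 8825 in the repressive and 7538 to 8356 in the activating line. No vehicle library of a MACC line reached the parental range. The log2 fold changes against parental cells were -0.34 for the neutral line (adjusted p = 0.00217 from edgeR), -0.26 for the repressive line (edgeR adjusted p = 0.0271) and -0.30 for the activating line (adjusted p = 0.0174 from edgeR). All 3 comparisons share the parental libraries. In each, 1 of 6 tested members was called, against 9.74%, 10.8% and 8.08% of all tested genes. The repressive call was lost without parental vehicle replicate 2 or 3 or repressive vehicle replicate 2 or 4 (adjusted p from 0.0594 to 0.0974 with edgeR), and the activating call without parental or activating vehicle replicate 3 (adjusted p of 0.0780 and 0.0544 with edgeR). RP11-386G11.10 and XXbac-BPG252P9.9 were also lower than in parental cells, by 0.16 to 0.21 on the log2 scale in the 3 lines, without passing (adjusted p from 0.112 to 0.237 with edgeR).

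Across libraries RP11-386G11.10 and XXbac-BPG252P9.9, which lie on different chromosomes and share no stretch of 50 bases, varied together. Of all tested genes, the one most like RP11-386G11.10 in log2 CPM was XXbac-BPG252P9.9, with Pearson's r = 0.942 over 32 libraries and 0.946 over the 24 without the activating line. The next were AC104135.3 (r = 0.888) and RP11-611O2.5, which lies opposite MDM2 (r = 0.884). XXbac-BPG252P9.9 was most like AC104135.3 (r = 0.957) and SARM1 (r = 0.947), then RP11-386G11.10. RP11-161H23.5 had other neighbours, CTD-2031P19.5 (r = 0.954), RP11-173P15.3 (r = 0.952) and a feature opposite MGAT2 (r = 0.948), of which the first lies opposite IL6ST and the next opposite MLEC. Without the activating line its nearest were others, MXD3 (r = 0.897), CTD-2231E14.8 (r = 0.885) and RP11-192H23.7 (r = 0.880). With RP11-386G11.10 it gave r = -0.31 over 32 libraries but 0.70 without the activating line, and with XXbac-BPG252P9.9 -0.54 and 0.78. The tubulin protein genes followed none of the features closely (TUBA1B and RP11-386G11.10, r = 0.251; TUBB and XXbac-BPG252P9.9, r = 0.298). Their own nearest genes reached 0.721 for TUBA1B (BSN), 0.745 for TUBB (TCP11L1) and 0.551 for TUBB4B (RSL1D1). Without the activating line they were ATP5B (r = 0.702), RP11-473C18.3 (r = 0.712) and CDK19 (r = 0.607) in the same order. These are descriptions over libraries that share lines, treatments and the scaling.

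FAM166A, the gene opposite TUBB4B, had 38 to 146 counts per library, more than TUBB4B but without the excess seen at the other loci. Its log2 fold changes under tamoxifen ran from -0.36 to 0.18 and none passed (adjusted p from 0.0804 to 0.855 with edgeR). It was called in the comparison of the activating with the neutral response (-0.56, adjusted p = 0.0342 from edgeR) and in the repressive line against parental cells with vehicle (-0.46, adjusted p = 0.0311 from edgeR).

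The promoters of the tubulin genes were inspected because every MACC carries the androgen receptor's DNA-binding domain, which recognises androgen response elements. Promoters of the opposite-strand features, the rows that moved, were not examined. No link between a motif and a change was tested. RefSeq sequences on GRCh38.p14 were matched for all 5 tubulin genes, and the 250 bases before the main start site are shown for TUBA1B (chr12:49131396-49131645, minus strand), TUBA1C (chr12:49264832-49265081, plus strand) and TUBB (chr6:30720102-30720351, plus strand), each in the direction of the gene. Capitals mark a CCAAT box (CCAAT), an E-box (CACGTG) or a cell cycle homology region (TTTGAA), the last an element known from many cell cycle genes, searched on both strands.
TUBA1B: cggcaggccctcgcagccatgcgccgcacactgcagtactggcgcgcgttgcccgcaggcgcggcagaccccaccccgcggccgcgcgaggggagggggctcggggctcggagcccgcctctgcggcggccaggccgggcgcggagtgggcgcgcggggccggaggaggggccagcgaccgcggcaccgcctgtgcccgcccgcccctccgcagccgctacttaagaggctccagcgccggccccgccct
TUBA1C: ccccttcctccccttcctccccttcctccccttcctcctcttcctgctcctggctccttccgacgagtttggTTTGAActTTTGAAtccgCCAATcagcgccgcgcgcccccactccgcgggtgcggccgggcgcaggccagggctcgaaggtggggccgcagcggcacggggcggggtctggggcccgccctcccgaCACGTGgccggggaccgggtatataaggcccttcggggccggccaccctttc
TUBB: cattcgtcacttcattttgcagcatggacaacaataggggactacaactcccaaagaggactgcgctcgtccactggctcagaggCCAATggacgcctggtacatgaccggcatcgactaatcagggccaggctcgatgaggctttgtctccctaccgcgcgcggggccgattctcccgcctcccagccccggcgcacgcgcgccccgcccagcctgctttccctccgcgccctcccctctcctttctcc
TUBA1B held none of these. TUBA1C held TTTGAA at 178 and 170 bases before the start, CCAAT at 160 and CACGTG at 52, and TUBB held CCAAT at 165. Of the tubulin genes not shown, TUBB4B held 1 TTTGAA and 3 CCAAT, and TUBA1A held 2 CCAAT. The letters are common: 32% of 35116 promoter windows of this length held CCAAT, 13.3% TTTGAA and 6.34% CACGTG. The full androgen response element, the half-site AGAACA and its reverse complement with a spacer of 3 bases, occurred in 1 of the 35116 windows (0.00285%) and in none of the 3 shown. So rare a match would be missing from these 3 in nearly any case. The paper places MACC peaks mainly in introns and between genes, so MACC binding cannot be judged from these windows. The half-site alone, held by 12.4% of windows, was in none of these 3 either, although the windows of 2 upstream start sites of TUBA1C (chr12:49227676-49227925 and chr12:49227769-49228018) hold it. A second start site of TUBB, chr6:30721388-30721637, held CACGTG at 49 bases before it.

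Of the wider tubulin and microtubule pathway, 150 genes in 8 lists were looked up, and only 32 passed the filter. In the activating line 6 of the 32 were higher and 10 lower, beside 22% and 22.8% of all tested genes, with a median log2 fold change of -0.18 beside -0.09 over all genes. In the repressive line 2 were higher and 6 lower (median -0.14), beside 7.8% and 9.99% of all tested genes. In the neutral line the counts were 0 and 1 (median -0.09), beside 2.61% and 2.11%, and in parental cells 0 and 0. Many of these genes also have a gene on the other strand, and of 29 such partners that were tested, 8 were higher and 7 lower in the activating line and 1 and 0 in the repressive line.

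Among the other tubulin genes, 4 of 18 were tested, and in the activating line 1 was higher and 2 lower, named here after their values were seen. Over all tested genes 22% were higher and 22.8% lower in that line. TUBB6, the beta-tubulin gene with the most counts on its own row, had 735 to 1158 counts in vehicle and 499 to 544 under tamoxifen, and fell by 0.22 on the log2 scale once depth was taken into account (SE 0.072, adjusted p = 0.0134 from edgeR). TUBB1, at 12 to 19 counts in vehicle and 3 to 6 under tamoxifen, was at -1.17 and TUBA3D, at 3 to 10 counts in vehicle and 13 to 16 under tamoxifen, at 1.84 (adjusted p = 0.0158 and 2.18e-04 from edgeR). None of the 4 was called in another line. On the other strand, AFG3L2 overlaps 837 exonic bases of TUBB6 and ATP5E overlaps 1180 of TUBB1, whereas TUBA3D has no such overlap. Which strand the counts on these rows came from was not tested.

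In the activating line, microtubule dynamics had 1 higher and 1 lower of 5 tested genes, beside 22% and 22.8% of all tested genes. MAP1B, a microtubule-associated protein, rose by 1.08 (SE 0.21, adjusted p = 1.79e-04 from edgeR) and in repressive cells it was at -0.83 (edgeR adjusted p = 0.0221). Nucleation had 2 higher and 1 lower of 5 tested genes, beside 22% and 22.8% of all tested genes. MZT2B, a component of gamma-tubulin ring complexes, rose by 0.92 (adjusted p = 0.00672 from edgeR) and in repressive cells was at -0.93 (edgeR adjusted p = 0.0105), and TUBGCP4, a subunit of the ring, rose by 0.56 (adjusted p = 0.00993 from edgeR). TUBGCP2, another subunit, was at -1.28 (adjusted p = 4.79e-05 from edgeR). TBCB, a cofactor that handles alpha-tubulin during dimer assembly, was at -0.94 (adjusted p = 0.00124 from edgeR). All of these but MAP1B have exons overlapped on the other strand, by SMPD4, TP53BP1, ZNF511 and POLR2I in that order of naming.

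Mitotic spindle and division genes gave 0 higher and 5 lower of 6 tested (29 listed) in the activating line, with a median of -1.17. Of all tested genes, 22% were higher and 22.8% lower there. NUMA1, which organises the spindle poles, had 46 to 67 counts in vehicle and 16 to 25 under tamoxifen and fell by 0.76 (SE 0.19, adjusted p = 0.00198 from edgeR). RP11-849H4.4, on the other strand of NUMA1, had 3309 to 5158 counts in vehicle and 2202 to 2789 under tamoxifen, a log2 fold change of -0.10 (adjusted p = 0.224 from edgeR). The others are named after their values were seen. MKI67, a proliferation marker, had 8 to 18 counts in vehicle and 0 to 1 under tamoxifen, TACC3 had 6 to 12 and 0 to 3, and PRC1, which bundles midzone microtubules, had 10 to 18 and 2 to 4. KIFC1 was at -0.29 (adjusted p = 0.0273 from edgeR). KIFC1, a minus-end-directed kinesin, rose by 0.48 in repressive cells (SE 0.089, adjusted p = 2.11e-04 from edgeR). In the list for tubulin mRNA decay, 3 of 13 genes were tested. In the repressive line 1 was higher and 2 lower, beside 7.8% and 9.99% of all tested genes. The neutral line had 0 and 1, beside 2.61% and 2.11%. CNOT1, the scaffold of the CCR4-NOT deadenylase, was at -0.57 in the neutral and -0.85 in the repressive line (edgeR adjusted p = 0.0477 and 0.0187), and CNOT2, another subunit, was at 0.80 in repressive cells (edgeR adjusted p = 0.0140). CNOT3, named after its values were seen, was at -0.86 there (adjusted p = 0.0430 from edgeR). None of the 3 was called in the activating line. The lists for motors (0 of 2 tested genes called), tubulin folding (1 higher and 1 lower of 5) and tubulin modification (1 higher of 2) complete the activating line. These counts stand beside 22% higher and 22.8% lower over all tested genes.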

How the data were processed

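RNA-seq libraries (Illumina Stranded mRNA Prep) of 8 groups with 4 replicates each were analysed from the deposited table of estimated counts per gene, made by the authors with salmon (1.9.0) in nf-core/rnaseq on GRCh37. The annotation release and the strand setting of the counting are not given in the sources used here. Before testing, values were rounded to integers. Genes passing filterByExpr over the 8 groups (3985 of 57773) were tested with edgeR 4.0.16 in R 4.3.3 (TMM, robust quasi-likelihood fit, Benjamini-Hochberg adjustment, threshold 0.05), each comparison on the libraries of its own groups. Normalised counts are CPM after TMM. Log2 ratios within a library used counts plus 0.5 and exact two-sided permutation tests (scipy 1.17.1). Checked on simulated data for the activating line over 3985 genes, the fit called 46 of 90 genes changed by 1 on the log2 scale and 100 of 110 changed by 2, none with the wrong sign, and 5 unchanged genes.

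The 8 members and the pathway lists were chosen with earlier results of these data known. Pathway genes are named where called among the 3 largest rises or falls of a tamoxifen comparison and averaging 20 counts or more, and likeness is the highest Pearson r of log2 CPM with a prior count of 2. Exons were taken from GENCODE 44 lifted to GRCh37, which held 96.1% of the genes in the table, and promoters from RefSeq (GRCh38.p14). Alternatives were DESeq2 1.42.0 (its test, and its size factors in edgeR), library totals, no filter on low counts, a single fit of all 32 libraries, each tubulin gene summed with its feature, a replicate block, leaving out each replicate, a pseudocount of 1, unrounded counts and, chosen after seeing the data, TMM from genes with no opposite-strand exon overlap. Library totals of 455008 to 1164832 counts limit the precision of the tubulin genes. A further sequence comparison is not reported here.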

Additional observations from a re-analysis of the deposited data

Results flagged for a closer look

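Of 64 groups of 4 libraries (8 members in 8 groups), 9 held a library far from the other 3 by Dixon's test, which flags about 1 group in 20 by chance. Values are normalised counts in CPM. Among the opposite-strand features these were RP11-386G11.10 in neutral tamoxifen replicate 2 (68245, highest), RP11-161H23.5 in repressive vehicle replicate 4 (7831, lowest) and XXbac-BPG252P9.9 in repressive tamoxifen replicate 4 (20631, lowest). The other 6 were tubulin genes with few counts. TUBB4B stood out in parental vehicle replicate 4 (35.3, highest), neutral vehicle replicate 3 (6.44, lowest) and activating vehicle replicate 4 (9.77, lowest). TUBA1B did so in activating vehicle replicate 2 (13.0, lowest), TUBA1A in parental vehicle replicate 2 (1.58, lowest) and TUBA1C in neutral vehicle replicate 4 (11.8, highest).

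The response to tamoxifen differed between lines in 8 tests of the interaction with edgeR. Between the activating and the neutral line the log2 differences were -0.26 for RP11-386G11.10, 0.77 for RP11-161H23.5 and -0.57 for XXbac-BPG252P9.9. The first was lost with DESeq2's test, DESeq2's size factors, a single fit of all libraries and TMM from genes with no opposite-strand exon overlap (-0.12, adjusted p = 0.392 from edgeR). Between the activating and the repressive line they were -0.52, 0.77 and -0.81 in the same order. Between the repressive and the neutral line they were 0.28 for RP11-386G11.10 and 0.26 for XXbac-BPG252P9.9. Both were lost with library totals, the single fit and that TMM.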

How the results depend on the processing

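Of 1084 recomputed log2 fold changes of members, 1024 kept their side of the threshold, 46 lost it and 14 gained it. The sign changed in 65 of the 1024, all of them values that passed neither in the reported fit nor in the alternative. Tamoxifen called 2 members in the repressive line, 0 with library totals and 1 with no filter on low counts, a single fit of all 32 libraries, TMM from genes with no opposite-strand exon overlap or DESeq2's test. The repressive against neutral response (2 members) gave 0 with library totals, the single fit and that TMM. Against parental vehicle, where each MACC line gave 1, that TMM gave 3 in the neutral, 2 in the repressive and 2 in the activating line, and the activating line gave 3 with library totals, no filter or the single fit. The cause was not tested.

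Leaving out single replicates gave 3 to 4 members for tamoxifen in the activating and 1 to 2 in the repressive line, 0 to 1 for the repressive and activating lines against parental, 2 to 3 for the activating against neutral and 0 to 2 for the repressive against neutral response. Non-overlapping ratios of tubulin gene to feature ran from 0 to 2 in the activating, 0 to 1 in the neutral and 0 to 1 in the repressive line.

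With the replicate number as a block, 3 members were called in the repressive and 0 in the activating line against parental vehicle. Deviations from the group mean in same-numbered vehicle and tamoxifen libraries of a line correlated at -0.026 to 0.249. For vehicle libraries of a MACC line and parental cells the range was -0.379 to 0.304. Within a line, the highest correlation fell on the same number for replicates 1, 3 and 4 in parental and 1, 2 and 4 in repressive cells. It did so for replicates 1 and 4 in neutral cells and for replicate 1 only in activating cells. Against parental vehicle, it did so only for replicates 1 and 4 of the repressive line. Whether same-numbered libraries share a batch was not tested. The labels do not say what the numbers stand for, so the reported fits did not pair libraries by number. The block moved the calls over all genes from 1786 to 1922 in the activating and from 709 to 931 in the repressive line under tamoxifen. In parental cells they went from 0 to 32 and in the neutral line from 188 to 253.

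Over libraries, RP11-161H23.5 with RP11-386G11.10 reversed from -0.31 to 0.70 without the activating line (Spearman 0.21), and with XXbac-BPG252P9.9 from -0.54 to 0.78 (Spearman 0.24). Depth limits the tubulin genes, which had at most 26 counts.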
